A study of Homo sapiens with 57 samples.

Results

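The 12 listed transcripts described here belong to 10 stress response genes and were followed through messenger RNA libraries of HCT116 cells, a human colorectal carcinoma line. They are 2 transcripts of ATF4, 1 of DDIT3, 2 of ASNS and 1 each of TRIB3, DDIT4, PSAT1, SLC7A11, HSPA5, XBP1 and HERPUD1. They were taken by identifier, as members of a list of ATF4 and endoplasmic reticulum stress genes, from 228715 transcripts in the deposited tables, and all 12 had enough reads to be tested. The cells of every group carried Spt5, a transcription elongation factor, fused to HA and the dhfr degron, and were kept without trimethoprim, the compound that stabilises this degron. All were grown with hygromycin, G418 and blasticidin and received 2 ug/ml doxycycline for 24 h, which switched on a pCW57 construct that encodes residues 1 to 820 of Spt5 with an Avi tag. The fragment carried CTR1, a region of Spt5, in the TE7 form, the TA7 form or the WT form, with 3 libraries for each of these 3 groups. Each form was in a cell line of its own, and the labels do not say whether a line is 1 clone or a pool, or whether replicates were separate cultures. A difference between forms and one between lines therefore cannot be told apart, and p-values measure the spread between these libraries.

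ATF4 is a bZIP transcription factor of the integrated stress response. Stress kinases phosphorylate the initiation factor eIF2, which lowers general translation but lets more ribosomes reach the ATF4 coding sequence, so that ATF4 is governed largely at translation and its mRNA level is a partial view of it. ATF4 then raises genes of amino acid synthesis and uptake, among them ASNS, PSAT1 and SLC7A11, and the regulators DDIT3, TRIB3 and DDIT4. The unfolded protein response of the endoplasmic reticulum shares the eIF2 kinase PERK with this pathway and has further arms through ATF6 and through IRE1, which splices XBP1 mRNA. HSPA5 and HERPUD1 are textbook targets of those arms.

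Promoters of 4 of these genes are shown because they hold the DNA letters by which ATF4 and the ATF6 and XBP1 arms are known to act. RefSeq windows on GRCh38.p14, reaching from 250 bases before to 50 bases after a gene's start, were at hand for 9 of the 10 genes, in 15 windows, and 5 motifs were searched on both strands. The C/EBP-ATF response element, searched as TGATGNAA, was in 2 of the 15, 1 of ASNS and 1 of HERPUD1, and in 3.62% of all 35116 windows. The endoplasmic reticulum stress element, ERSE, searched with its spacer bases free, was in 2 of the 15, 1 of HSPA5 and 1 of XBP1. It was in 0.0769% of all windows. The second form of this element, ERSE-II, was in 1 of the 15, the same HERPUD1 window, and in 0.0541% of all windows. The cyclic AMP response element TGACGTCA (1.85% of all windows) and the unfolded protein response element TGACGTGG (0.729%) were in none of the 15. No match overlapped another, and a match describes letters, not binding. The sequences below come from the windows with a match. They are the 200 bases before the start, 5′ to 3′ on the gene's own strand, with matches in capitals.

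ASNS, chr7:97872409-97872608, minus strand: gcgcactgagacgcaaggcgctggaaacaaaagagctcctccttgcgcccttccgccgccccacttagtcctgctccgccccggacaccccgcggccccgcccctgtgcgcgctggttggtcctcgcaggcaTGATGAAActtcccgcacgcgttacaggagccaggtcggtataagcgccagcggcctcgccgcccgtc

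HERPUD1, chr16:56931942-56932141, plus strand: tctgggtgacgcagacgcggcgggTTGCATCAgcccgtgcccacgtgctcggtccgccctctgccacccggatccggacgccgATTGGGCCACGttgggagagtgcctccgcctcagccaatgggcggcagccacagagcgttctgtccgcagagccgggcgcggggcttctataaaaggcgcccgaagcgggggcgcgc

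HSPA5, chr9:125241344-125241543, minus strand: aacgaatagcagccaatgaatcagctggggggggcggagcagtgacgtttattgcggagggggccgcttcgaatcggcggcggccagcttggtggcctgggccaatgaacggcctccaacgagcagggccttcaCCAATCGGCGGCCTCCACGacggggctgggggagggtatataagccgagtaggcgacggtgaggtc

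XBP1, chr22:28800570-28800769, minus strand: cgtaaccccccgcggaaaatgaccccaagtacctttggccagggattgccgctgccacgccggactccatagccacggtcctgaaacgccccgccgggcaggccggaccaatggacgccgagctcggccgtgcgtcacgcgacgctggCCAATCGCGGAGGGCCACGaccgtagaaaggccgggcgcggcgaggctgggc

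The ASNS match spans bases -68 to -61, counted back from the start of the gene. In HERPUD1 the first match lies at -176 to -169 and reads on the opposite strand, and the second lies at -117 to -107. The matches in HSPA5 and XBP1 lie at -66 to -48 and at -52 to -34.

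Per length, the members differed widely in level. Levels are compared between genes in TPM (transcript abundances that the authors scaled per effective length to a fixed total in each library). HSPA5, the chaperone BiP of the endoplasmic reticulum, was the most abundant listed transcript, at 309 ± 2.71 TPM in TE7, 309 ± 11 TPM in TA7 and 313 ± 7.4 TPM in WT (SD, n = 3 each). PSAT1 came second, at 65.4 ± 2.7 TPM in TE7, 63.6 ± 1.02 TPM in TA7 and 47.8 ± 3.84 TPM in WT. DDIT3, TRIB3, XBP1, DDIT4 and both ASNS transcripts lay between 10.4 and 34.8 TPM on average. In this middle range neighbours overlapped, in WT ENST00000175506 of ASNS with TRIB3 and TRIB3 with XBP1, in TE7 DDIT3 with TRIB3 and TRIB3 with XBP1. In TA7 all neighbours from TRIB3 down to ENST00000394308 of ASNS overlapped. DDIT3 stood at rank 3 in TE7 and at rank 7 in TA7 and WT. The ATF4 transcripts, SLC7A11 and HERPUD1 were the lowest, between 0.687 and 6.5 TPM on average. The last place was held by SLC7A11 in TE7, at 1.92 ± 0.0794 TPM, and by HERPUD1 in TA7 and WT, at 0.927 ± 0.142 and 0.687 ± 0.0651 TPM. Transcripts of the same genes that are not on the list could not be added, since the tables carry no gene names. A low listed transcript, of ATF4 or HERPUD1 for example, is thus not the level of its gene.

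The libraries held 64364751 to 90805283 estimated reads. WT replicate 1 stood apart, with a TMM scaling factor of 0.92 against 0.971 to 1.037 in the other 8 libraries and with 87229 transcripts above 0 against 95401 to 99993. Below, CPM means counts scaled to a common library size with TMM factors, and changes are log2 values from edgeR's quasi-likelihood test with an approximate standard error (SE). A transcript is called at an adjusted p under 0.05, with Benjamini-Hochberg adjustment over 78478 tested transcripts.

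The first question was how these genes stood in cells with the TE7 form against cells with the WT form. DDIT3, HERPUD1 and PSAT1 rose, SLC7A11 and ENST00000175506 of ASNS fell, and the other 7 listed transcripts, HSPA5 among them, did not pass the test. This makes 5 of 12 called, 3 higher and 2 lower, where 9.40% of all tested transcripts were called, 4.59% higher and 4.81% lower. Abundant transcripts were called more often. Of those with a mean of at least 5 CPM, 25.0% were called, and so were 4 of the 10 members at that level. The median log2 change was 0.27 over the 12 members, -0.02 over all tested transcripts and 0.04 over those of at least 5 CPM. With each library's trend on transcript length removed, a setting chosen after the data were seen, the members' median was 0.15. The same 5 members were then called in edgeR. Their changes were 1.00 for DDIT3, 0.41 for PSAT1, 1.68 for HERPUD1, -0.77 for SLC7A11 and -0.74 for ENST00000175506 of ASNS. The TE7 and WT ranges of CPM did not overlap for 8 members, 6 higher and 2 lower, as for 32.9% of all tested transcripts and 52.0% of those of at least 5 CPM. These 8 include ENST00000404241 of ATF4 and HERPUD1, which lie below that level, at means of 3.5 and 2.89 CPM. In bulk RNA, fewer cells with a transcript and less of it per cell cannot be told apart.

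**Figure D1:**
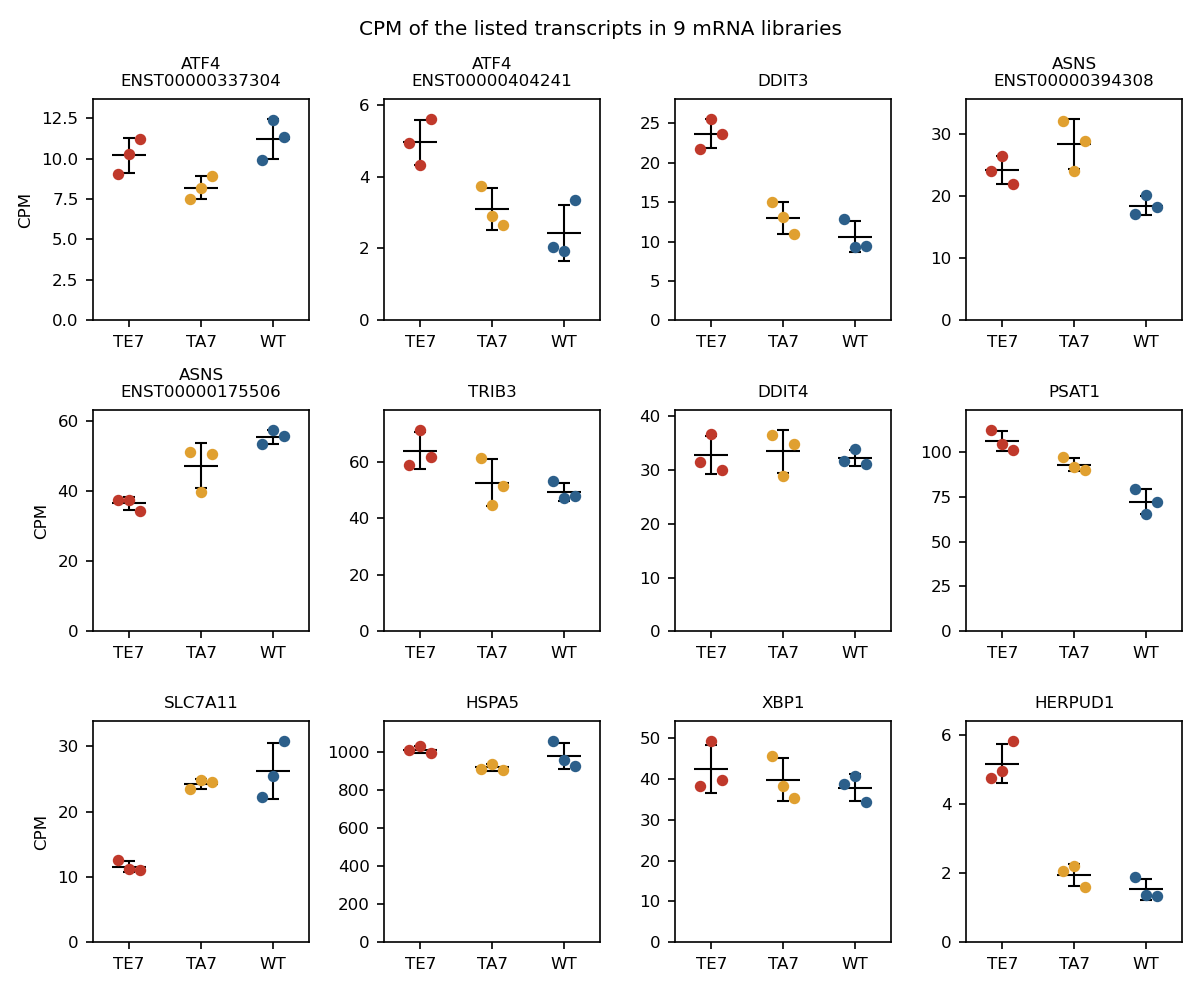
CPM (vertical axes, from 0) of each listed transcript in the 9 libraries, by group (TE7, TA7, WT). Points are libraries, in the order of their replicate numbers, and bars are mean ± SD. DDIT3 and HERPUD1 are higher and SLC7A11 is lower in all 3 TE7 libraries than in any other, while HSPA5 lies between 905 and 1056 CPM throughout.

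Among the transcription factors, DDIT3 encodes CHOP, a bZIP factor that dimerises with C/EBP proteins and is linked to cell death under prolonged stress. DDIT3 had 21.8, 25.5 and 23.7 CPM in TE7, 15.0, 13.1 and 11 CPM in TA7, and 12.8, 9.37 and 9.5 CPM in WT. The TE7 libraries lay above all 6 others, and TA7 and WT overlapped. DDIT3 was 2.24-fold higher in TE7 than in WT (approximate 95% interval 1.72 to 2.91), with a log2 change of 1.16 (SE 0.16) and an edgeR adjusted p of 0.00628.

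Neither ATF4 transcript passed the test. ENST00000337304, the more abundant of them, had 9.06, 10.3 and 11.2 CPM in TE7, 7.51, 8.17 and 8.94 CPM in TA7, and 9.92, 12.4 and 11.3 CPM in WT. TE7 and WT overlapped, and the log2 change between them was -0.14 (SE 0.13, edgeR adjusted p = 0.6). ENST00000404241 had 4.94, 4.33 and 5.6 CPM in TE7, 3.74, 2.91 and 2.65 CPM in TA7, and 2.05, 1.93 and 3.34 CPM in WT. Its TE7 libraries lay above the WT libraries, with a log2 change of 1.02 (SE 0.27), but it missed the threshold (edgeR adjusted p = 0.0529). It passed under 5 of 21 other ways of processing, with adjusted p between 0.00274 and 0.153 over all of them, among them edgeR without WT replicate 3 (0.0322). Summed, both ATF4 transcripts had 14.0, 14.6 and 16.8 CPM in TE7, 11.3, 11.1 and 11.6 CPM in TA7, and 12.0, 14.3 and 14.6 CPM in WT. The sum's log2 change in TE7 against WT was 0.15 (SE 0.11, edgeR adjusted p = 0.47).

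Members of amino acid supply changed in opposite directions. PSAT1, the aminotransferase of serine synthesis, had 112, 104 and 101 CPM in TE7, 96.8, 91.4 and 90.0 CPM in TA7, and 79.1, 65.3 and 71.9 CPM in WT. In CPM these groups are ordered without overlap, TE7 above TA7 above WT. In TPM the TE7 range, 62.8 to 68.2, overlapped with the TA7 range, 62.6 to 64.6, and WT lay below both. PSAT1 was 1.47-fold higher in TE7 than in WT (log2 change 0.55, SE 0.08, edgeR adjusted p = 0.00671), a call lost in limma on log2(TPM + 0.1), with adjusted p = 0.0692.

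SLC7A11 encodes xCT, the light chain of the cystine and glutamate exchanger that feeds glutathione synthesis. SLC7A11 had 12.6, 11.2 and 11.1 CPM in TE7, 23.4, 24.9 and 24.6 CPM in TA7, and 22.3, 25.5 and 30.8 CPM in WT. TE7 lay below every other library, while TA7 was within the range of WT. The level in TE7 was 0.443 of that in WT (approximate 95% interval 0.364 to 0.54), a log2 change of -1.17 (SE 0.12, edgeR adjusted p = 0.00204). At 9645 bases SLC7A11 is the longest listed transcript. Of 1070 tested transcripts of at least 8000 bases and 5 CPM, 347 were called lower in TE7 and 42 were called higher, with a median log2 change of -0.43, and 15.0% had a more negative change than SLC7A11. With each library's trend on transcript length removed, a setting chosen after the data were seen, the SLC7A11 change was -0.77 and still called (edgeR adjusted p = 0.0014).

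ASNS, asparagine synthetase, was listed with 2 transcripts of similar length, 2385 and 2356 bases. ENST00000175506 had 37.6, 37.6 and 34.4 CPM in TE7, 51.2, 39.7 and 50.5 CPM in TA7, and 53.3, 57.3 and 55.7 CPM in WT. In CPM it was lowest in TE7, highest in WT, and the ranges of the 3 groups did not overlap. In TPM the TA7 range, 23.0 to 29.1, overlapped with the WT range, 26.2 to 32.7, and TE7 lay below both. It fell in TE7 against WT by 0.60 on the log2 scale (SE 0.10, edgeR adjusted p = 0.0121), a call lost without TE7 replicate 3 (0.053). ENST00000394308 lay the other way, at 24.1, 26.5 and 22 CPM in TE7, 32.1, 24.1 and 28.9 CPM in TA7, and 17.2, 20.2 and 18.2 CPM in WT. Its TE7 libraries were above its WT libraries without passing the test, at a log2 change of 0.38 (SE 0.12, edgeR adjusted p = 0.1). The sum of both was 61.6, 64.1 and 56.4 CPM in TE7, 83.3, 63.8 and 79.4 CPM in TA7, and 70.5, 77.5 and 73.9 CPM in WT. For the sum the TE7 against WT change of -0.29 (SE 0.10) did not pass (edgeR adjusted p = 0.136).

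Neither regulator passed. TRIB3, a pseudokinase that binds ATF4 and CHOP and restrains AKT, had 58.9, 71.3 and 61.7 CPM in TE7, 61.5, 44.9 and 51.5 CPM in TA7, and 53.2, 47.1 and 48.0 CPM in WT. Its TE7 libraries lay above the WT ones, with a log2 change of 0.37 (SE 0.13, edgeR adjusted p = 0.11). DDIT4, also named REDD1, which inhibits mTORC1 under stress, had 31.6, 36.8 and 30.1 CPM in TE7, 36.6, 29.0 and 34.8 CPM in TA7, and 31.7, 34.0 and 31.2 CPM in WT. All 3 groups overlapped, and the change of DDIT4 in TE7 against WT was 0.02 (SE 0.11), with an approximate 95% interval of the fold from 0.853 to 1.21.

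Of the endoplasmic reticulum members HERPUD1 alone was called. It encodes HERP, a ubiquitin-like membrane protein of the pathway that degrades misfolded proteins of that compartment. HERPUD1 had 4.76, 4.94 and 5.82 CPM in TE7, 2.05, 2.2 and 1.6 CPM in TA7, and 1.89, 1.38 and 1.35 CPM in WT. These values rest on 320, 345 and 426 estimated reads in TE7, 137, 205 and 112 in TA7, and 113, 90 and 94 in WT. TE7 lay above all others and was 3.36-fold higher than WT (approximate 95% interval 2.34 to 4.82), with a log2 change of 1.75 (SE 0.22) and an edgeR adjusted p of 0.00446. On the log2(TPM + 1) scale, which shrinks low levels, the limma change of HERPUD1 was 0.94 and still passed.

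HSPA5 had 1009, 1029 and 994 CPM in TE7, 909.8, 938 and 905 CPM in TA7, and 1056, 954 and 924 CPM in WT. The WT libraries spanned the TE7 range, and the log2 change in TE7 against WT was 0.05 (SE 0.06, edgeR adjusted p = 0.678). The approximate 95% interval of the fold, 0.945 to 1.13, ends below the lower bound of HERPUD1. The upper end of the WT span was replicate 1, while WT replicates 2 and 3 lay below every TE7 library. Without WT replicate 1 the HSPA5 change was 0.11 and still not called (edgeR adjusted p = 0.0885). Every TE7 library lay above every TA7 library, a log2 change of 0.14 (SE 0.06, edgeR adjusted p = 0.229). XBP1, the transcription factor made active by IRE1, had 38.3, 49.2 and 39.7 CPM in TE7, 45.5, 38.1 and 35.4 CPM in TA7, and 38.6, 40.6 and 34.3 CPM in WT. All XBP1 groups overlapped, with a log2 change in TE7 against WT of 0.17 (SE 0.13, edgeR adjusted p = 0.503). The spliced share of XBP1 mRNA was not analysed here. For the genes with a stress element match printed above, the listed transcripts of HSPA5 and XBP1 were thus not called and that of HERPUD1 was. Whether these transcripts start at the printed promoters was not tested, and none of them is the level of its whole gene.

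**Figure D2:**
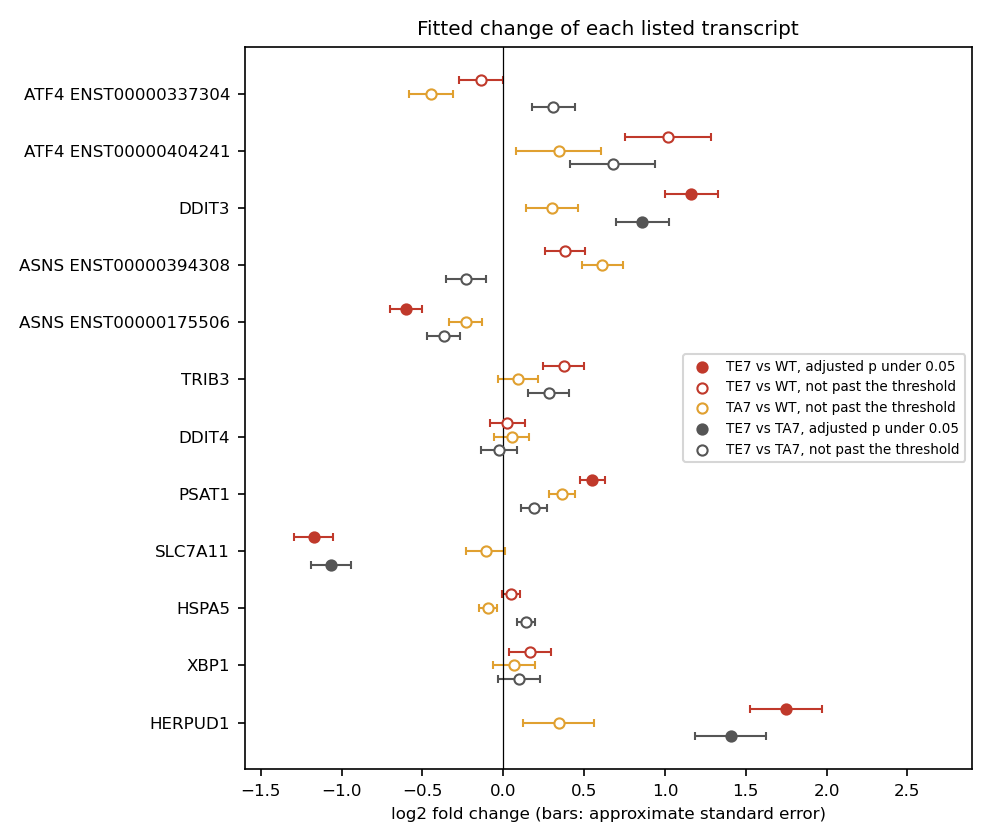
Fitted log2 fold change (horizontal axis) of each listed transcript in TE7 vs WT, TA7 vs WT and TE7 vs TA7, with bars of 1 approximate SE. Filled points passed an adjusted p of 0.05 in edgeR: 5 in TE7 vs WT, 3 in TE7 vs TA7 and 0 in TA7 vs WT.

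The second comparison set the TA7 form against WT. None of the 12 members was called, where 0.0612% of all tested transcripts were, 0.0408% higher and 0.0204% lower, and 0.151% of those of at least 5 CPM. At an unadjusted p under 0.05 there were 3 members in edgeR, the first ATF4 transcript, ENST00000394308 of ASNS and PSAT1, and DESeq2 called the same number after adjustment. Of all 78478 tested transcripts, 6065 had an unadjusted p under 0.05 in edgeR, and DESeq2 called 2.79% of those it tested. ENST00000394308 had the greatest log2 change of these in size, 0.61 (SE 0.12, edgeR adjusted p = 0.21), with every TA7 library above every WT library. PSAT1 was likewise higher in all TA7 than in all WT libraries, at 0.36 (SE 0.08, edgeR adjusted p = 0.252). The first ATF4 transcript had a lower CPM in all TA7 than in all WT libraries, at -0.45 (SE 0.13, edgeR adjusted p = 0.44). Ranges of CPM did not overlap for 4 members, 2 on each side, as for 14.1% of all tested transcripts and 20.3% of those of at least 5 CPM. The 2 lower members, the first ATF4 transcript and ENST00000175506 of ASNS, overlapped with WT in TPM. The log2 changes of DDIT3 (0.30, SE 0.16), HERPUD1 (0.34, SE 0.22) and SLC7A11 (-0.11, SE 0.12) in TA7 against WT did not pass. TA7 vs WT and TE7 vs WT share their WT libraries.

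The third comparison set TE7 directly against TA7. It called 3 of the 12 members, DDIT3, HERPUD1 and SLC7A11, where 3.07% of all tested transcripts were called, 1.29% higher and 1.78% lower. At a mean of at least 5 CPM, 2 of 10 members and 9.63% of all tested transcripts were called. It shares its TE7 libraries with the first comparison. DDIT3 was 1.82-fold higher in TE7 than in TA7 (log2 change 0.86, SE 0.16, edgeR adjusted p = 0.0374), and HERPUD1 was 2.65-fold higher (1.41, SE 0.22, edgeR adjusted p = 0.0225). SLC7A11 was at 0.478 of its TA7 level in TE7, a log2 change of -1.06 (SE 0.12, edgeR adjusted p = 0.00907). Here too long transcripts were lower in TE7. Of 1070 tested transcripts of at least 8000 bases and 5 CPM, 186 were called lower and 8 higher. Their median log2 change was -0.40, and 13.2% had a more negative change than SLC7A11. Over the 21 alternatives the SLC7A11 change ranged from -1.21 to -0.67. With the length trend removed the DDIT3 change was 0.64 (edgeR adjusted p = 0.0366). PSAT1, called against WT, differed between TE7 and TA7 by 0.19 (SE 0.08, edgeR adjusted p = 0.244). The summed ATF4 transcripts were higher in TE7 than in TA7 by 0.42 (SE 0.11) without passing (edgeR adjusted p = 0.0931). They passed in DESeq2 and, in edgeR, without WT replicate 1, with adjusted p of 0.00298 and 0.0487. Ranges of CPM did not overlap for 8 members, 6 higher and 2 lower, as for 31.5% of all tested transcripts and 51.9% of those of at least 5 CPM. The 8 again include ENST00000404241 of ATF4 and HERPUD1, whose means are below 5 CPM.

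With a TE7 or TA7 library left out, fewer of these calls passed. The count was 1 without TE7 replicate 1 or 3 or without TA7 replicate 1 or 2, SLC7A11 each time. It was 0 without TE7 replicate 2 or TA7 replicate 3, where the edgeR adjusted p of SLC7A11 was 0.0518 and 0.0509. Calls over the whole table also thinned in these fits, to between 0.354% and 1.5% of the transcripts tested. The DDIT3 call was further lost without WT replicate 2 or 3, with edgeR adjusted p of 0.0591 and 0.0515. The direction of these 3 changes was the same in all 21 alternatives.

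**Figure D3:**
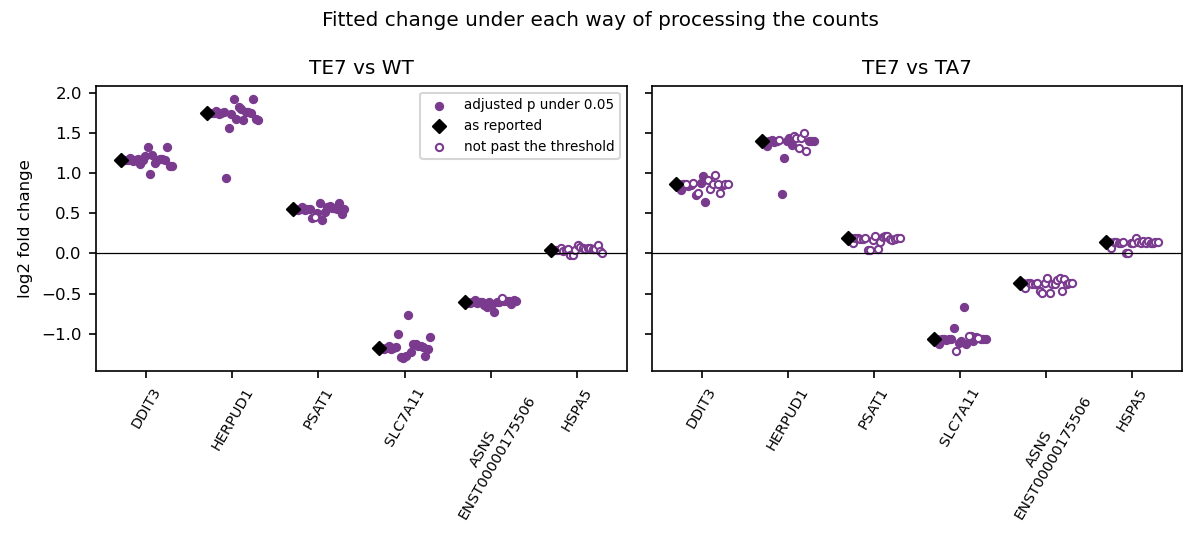
Log2 fold change (vertical axis) of HSPA5 and of the 5 listed transcripts that differed between TE7 and WT, under 22 ways of processing, in TE7 vs WT and TE7 vs TA7. Black diamonds are the reported values, called or not, and filled circles are alternatives that passed an adjusted p of 0.05; DDIT3, HERPUD1 and SLC7A11 passed in all 21 alternatives for TE7 vs WT and in 10, 14 and 18 for TE7 vs TA7.

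The split between the listed transcripts was measured for ATF4 and for ASNS. With 3 libraries a group the test used could not give a p under 0.1, so it cannot decide whether the split differs. As a share of the TPM of both ASNS transcripts, ENST00000394308 made up 39.3%, 41.6% and 39.3% in TE7, 38.8%, 38.0% and 36.8% in TA7, and 24.7%, 26.5% and 25.1% in WT. The libraries of both mutant forms lay above those of WT, by 14.63 percentage points for TE7 and 12.43 for TA7, which is many times the SD within a group (0.939 to 1.33). The TE7 mean exceeded that of TA7 by 2.21 points, again without overlap, but by 1.44 points without TE7 replicate 2. For ATF4, ENST00000337304 made up 63.2%, 68.9% and 65.2% in TE7, 65.4%, 72.5% and 75.9% in TA7, and 81.9%, 85.7% and 75.7% in WT. TE7 was below WT by 15.3 points without overlap, and TA7 overlapped with both. The exact two-sided permutation test gave p = 0.1 for the 3 ASNS comparisons and for ATF4 in TE7 vs WT, the smallest that 3 against 3 libraries allow, and 0.2 for the other ATF4 comparisons. Adjusted over the 6 tests the smallest p was 0.15. The TPM of transcripts that share sequence are estimates and can trade reads, and RefSeq lists pseudogenes for both genes. It also lists pseudogenes for PSAT1, HSPA5 and XBP1.

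**Figure D4:**
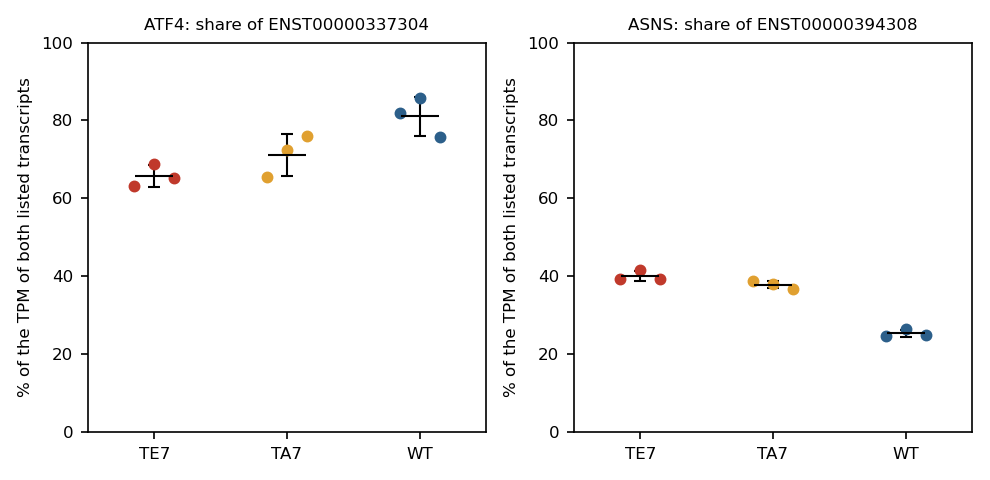
Share (vertical axis, %) of ENST00000337304 in the TPM of both listed ATF4 transcripts and of ENST00000394308 in that of both listed ASNS transcripts, by group. Points are libraries and bars are mean ± SD; for ASNS the TE7 and TA7 libraries lie between 36.8% and 41.6% and the WT libraries between 24.7% and 26.5%.

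Across the 9 libraries the other members had Pearson correlations of log2 CPM with the summed ATF4 transcripts between -0.568 for SLC7A11 and 0.506 for HERPUD1. DDIT3 was at 0.399, HSPA5 at 0.373 and TRIB3 at 0.339, which are ranks 3272, 3740 and 4377 among 19819 transcripts compared. XBP1 was at 0.075, PSAT1 at 0.026 and DDIT4 at -0.132. ENST00000175506 and ENST00000394308 of ASNS were at -0.356 and -0.375. The transcripts most like the ATF4 sum among 19819 of at least 5 CPM were ENST00000465158.5_2 and ENST00000307741.11_3, at 0.931 and 0.924, and the tables pair neither with a gene. All these values share the same libraries and scaling and describe 9 points. Antisense RNAs of DDIT4 and SLC7A11 are annotated in RefSeq, and whether the kit keeps strand is not given in the sources used here, so reads of such pairs may be mixed.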

How the data were processed

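Messenger RNA of 9 libraries was analysed; the other 48 samples of the series are not analysed here. The submitters' processing notes list cutadapt 2.3, Salmon 1.3.0 and hg19. No source used here states the transcript set, library type or bias options. The deposited tables hold, per the file headers, an estimated count (expected count) of reads and a TPM value scaled per effective length by the authors. Lengths are in bases, per the file headers. Effective lengths differ by library (6080 to 7380 bases for SLC7A11), which enters TPM directly and can enter the sharing of reads between transcripts.

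Counts were rounded, filtered (edgeR 4.0.16 default, group factor), scaled by TMM and fitted in one quasi-likelihood model with group as its term. Approximate SE is the log2 change divided by the root of F. DESeq2 1.42.0, limma 3.58.1, other scalings and filters, an effective length offset, pairs of groups, a replicate block and left-out libraries were alternatives. The code was tested on simulated data.

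Members, lists and tests were chosen with earlier results of these data known. All members are named; beyond them, the 2 transcripts best correlated with summed ATF4 were. The gene tables held 0 rows with these transcript identifiers, so member names come from the list itself, and other pathway genes and cell type markers are not analysed here.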

Additional observations from a re-analysis of the deposited data

How the results depend on the processing

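The log2 changes, their median and the counts of calls were recomputed under 21 alternatives, of which the removal of the length trend was added after the data were seen. The transcript shares were recomputed from estimated counts and with 1 library left out, and other values have no alternative. The counts of members called were 5 in TE7 vs WT, 0 in TA7 vs WT and 3 in TE7 vs TA7. In TE7 vs WT DESeq2 gave 8, with 20.2% of all transcripts called against 9.40%. In TA7 vs WT DESeq2 gave 3, with 2.79% of all called against 0.0612%. In TE7 vs TA7 the replicate block and limma on log2(TPM + 0.1) gave 1 each, with 1.4% and 0.832% of all transcripts called against 3.07%. Without one library the counts ranged from 4 to 6, from 0 to 0 and from 0 to 3. Deviations of same-numbered libraries from their group means correlated between -0.049 and 0.236. Those of differently numbered libraries correlated between -0.252 and 0.114. Whether replicate numbers pair the libraries was not tested.

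The summed ATF4 change in TE7 vs WT turned to -0.02 with the length trend removed, and in TE7 vs TA7 DESeq2 called it at 0.42. The summed ASNS change was called by DESeq2 in TE7 vs WT (-0.29) and TE7 vs TA7 (-0.31). In TA7 vs WT it turned to -0.07 without both first libraries (WT and TA7 replicate 1). Values of members that were not called changed sign near 0: in TE7 vs WT HSPA5 under limma with 1 or 0.1 added (-0.01 and -0.02), and DDIT4 (-0.16) and XBP1 (-0.01) without the length trend; in TA7 vs WT DDIT4 and XBP1 without both first libraries (-0.02 each); in TE7 vs TA7 DDIT4 without both first libraries (0.04), and XBP1 under both limma settings (-0.04) and without the length trend (-0.07). With 1 library left out, values ranged in TE7 vs WT from -0.05 to 0.09 for DDIT4; in TA7 vs WT from -0.03 to 0.15 for summed ASNS and for XBP1, from -0.02 to 0.20 for TRIB3, from -0.01 to 0.15 for DDIT4, from -0.20 to 0.02 for SLC7A11 and from -0.01 to 0.18 for the members' median; in TE7 vs TA7 from 0.34 to 0.48 for summed ATF4, from -0.11 to 0.05 for DDIT4 and from -0.02 to 0.21 for XBP1. The cause was not tested. Low counts, as for HERPUD1, and 3 libraries a group limit these values.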
